A study of Mus musculus with 8 samples.

Results

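The snoRNA host genes are genes whose transcripts carry small nucleolar RNAs (snoRNAs). They were chosen by symbol, as *Gas5*, *Snhg1*, *Snhg3*, *Snhg5*, *Snhg6*, *Snhg7*, *Snhg8* and *Snhg12*. A row was found for 6 of the 8 symbols, among 37310 genes in the deposited table of read counts, while *Snhg6* and *Snhg8* had no row under those symbols and were skipped. RNA-seq libraries of NMuMG cells, a mouse mammary epithelial line, were compared in 4 groups of 2 libraries each. The groups were untreated control cells (control), control cells given 10 ng/mL TGF-β1 for 2 h (control_TGFb2h), untreated cells depleted of the long noncoding RNA *Lnc-Nr6a1* (KO) and depleted cells given the same TGF-β1 treatment (KO_TGFb2h). In the depleted cells, CRISPR-Cas9 had removed a fragment that covers the promoter and part of the first exon of *Lnc-Nr6a1*, and individual clones had been selected, so a difference between genotypes cannot be told apart from a difference between clones. The paper reports that the deletion also affected the expression of miR-181a2 and miR-181b2. Which clone was sequenced is not given in the sources used here. All cells were grown with serum and insulin.

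Most snoRNAs of vertebrates lie in the introns of other genes and are released from the excised intron after splicing. C/D snoRNAs, which bear the C and D boxes, guide 2′-O-methylation of ribosomal RNA, and H/ACA snoRNAs, which end in an ACA box, guide pseudouridylation; both kinds work in complexes with a fixed set of core proteins. The spliced exons of a noncoding host are usually degraded by nonsense-mediated decay when translated, and many hosts start at a run of pyrimidines, as the mRNAs of ribosomal proteins do, which ties their translation and turnover to cell growth.

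The annotation supported the label in every member, each of which contained between 2 and 9 snoRNA genes on its own strand, 27 in all. Positions below are those of NCBIM37 (mm9), the build of the GENCODE vM1 annotation whose identifiers match the deposited table. *Gas5* (growth arrest specific 5, ENSMUSG00000053332.7), a noncoding RNA that accumulates in arrested cells, lies at chr1:162964553-162968670 on the plus strand with 9 C/D snoRNAs. *Snhg1* (ENSMUSG00000090867.1), the host of Snord22, lies at chr19:8797986-8800932 on the plus strand with 8 C/D snoRNAs. *Snhg5* (ENSMUSG00000032424.7), the host of the U50 snoRNA, lies at chr9:88415894-88417721 on the minus strand with 2 C/D snoRNAs. *Snhg7* (ENSMUSG00000091299.1), at chr2:26492697-26495764 on the minus strand, and *Snhg3* (ENSMUSG00000085241.1), at chr4:131903929-131909601 on the minus strand, each hold 2 H/ACA snoRNAs. *Snhg12* (ENSMUSG00000086290.1), at chr4:131864593-131866939 on the plus strand, holds 3 H/ACA snoRNAs and 1 C/D snoRNA.

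The stretch around the start site is shown for each host because hosts of this kind are known for the sequence at their start. Each sequence gives 40 bases before and 20 bases from the start site in RefSeq (GRCm38.p6), located in NCBIM37 by an exact match. Capitals mark a TATA that begins 20 to 40 bases before the start and the longest run of C and T that touches the window from 5 bases before to 10 bases after the start.
Gas5 (chr1:162965257-162965316, plus strand): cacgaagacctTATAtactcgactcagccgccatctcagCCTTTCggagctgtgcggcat
Snhg1 (chr19:8797937-8797996, plus strand): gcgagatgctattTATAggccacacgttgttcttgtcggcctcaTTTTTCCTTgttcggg
Snhg5 (chr9:88417716-88417775, minus strand): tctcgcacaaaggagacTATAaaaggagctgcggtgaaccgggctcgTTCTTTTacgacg
Snhg7 (chr2:26495745-26495804, minus strand): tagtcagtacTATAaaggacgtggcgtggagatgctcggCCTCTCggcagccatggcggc
Snhg12 (chr4:131864553-131864612, plus strand): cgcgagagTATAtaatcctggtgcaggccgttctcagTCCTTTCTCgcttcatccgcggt
Snhg3 (chr4:131909582-131909641, minus strand): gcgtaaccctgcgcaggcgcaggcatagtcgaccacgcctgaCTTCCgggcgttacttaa

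A TATA in that window, which reads the same on both strands, occurred in 5 of the 6 hosts and in 5.81% of 32851 RefSeq promoters; *Snhg3* had none. *Gas5* has a further RefSeq start upstream of the one shown, with no TATA there and a pyrimidine run of 3 bases, a length reached by 75.9% of promoters. The pyrimidine run was longest in *Snhg1* and *Snhg12*, with 9 bases, a length reached by 7.89% of promoters. It had 7 bases in *Snhg5*, 6 in *Gas5* and *Snhg7*, and 5 in *Snhg3*, lengths reached by 16.3%, 24.4% and 38.0% of promoters. These matches describe letters in the window and were not tested for use in these cells.

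The snoRNAs with reads, and a C/D snoRNA of *Gas5* for comparison, are shown because the counts turn on where they lie. Capitals mark TGATGA (C box) within the first 25 bases and CTGA (D box) within the last 25 bases, or ACA within the last 8 bases, on the strand of the gene.
SNORD44 in Gas5 (chr1:162966813-162966872, plus strand): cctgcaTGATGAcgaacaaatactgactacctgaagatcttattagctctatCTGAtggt
SNORD50 in Snhg5, nearer to the start (chr9:88416635-88416706, minus strand): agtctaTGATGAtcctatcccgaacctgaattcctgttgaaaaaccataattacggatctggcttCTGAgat
SNORD50 in Snhg5, farther from the start (chr9:88416367-88416438, minus strand): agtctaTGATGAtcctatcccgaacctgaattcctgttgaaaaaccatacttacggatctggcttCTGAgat
Snora16a in Snhg12 (chr4:131865380-131865515, plus strand): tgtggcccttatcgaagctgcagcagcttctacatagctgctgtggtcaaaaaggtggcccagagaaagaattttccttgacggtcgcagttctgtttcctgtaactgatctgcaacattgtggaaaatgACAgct
Snora73a in Snhg3 (chr4:131908690-131908894, minus strand): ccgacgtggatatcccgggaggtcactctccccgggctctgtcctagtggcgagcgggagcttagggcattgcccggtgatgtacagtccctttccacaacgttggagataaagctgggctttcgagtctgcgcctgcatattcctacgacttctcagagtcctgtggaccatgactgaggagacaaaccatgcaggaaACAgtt
Snora73b in Snhg3 (chr4:131908237-131908441, minus strand): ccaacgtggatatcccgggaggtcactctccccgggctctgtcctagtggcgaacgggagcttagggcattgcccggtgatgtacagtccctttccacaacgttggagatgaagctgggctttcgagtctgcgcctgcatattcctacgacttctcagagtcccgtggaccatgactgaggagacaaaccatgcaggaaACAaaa

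Both boxes were found in 16 of the 20 C/D snoRNAs of the hosts, and in 279 of all 1552 annotated snoRNA genes, which include H/ACA snoRNAs. The ACA was found in 6 of the 7 H/ACA snoRNAs and in 47.7% of all snoRNA genes. The SNORD50 copies of *Snhg5* differ at 1 of 72 positions, and Snora73a and Snora73b of *Snhg3* differ at 7 of 205, so reads could be split between the members of a pair.

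Totals of the libraries ranged from 4297832 to 13574397 counts, and the smallest was an untreated KO library. *Lnc-Nr6a1*, the targeted gene, had 3 and 14 counts in control, 25 and 35 in control_TGFb2h, 11 and 7 in KO and 0 and 0 in KO_TGFb2h. It separated the TGF-β-treated libraries by genotype but not the untreated ones, so every direction below that rests on untreated KO libraries is that of the libraries labelled KO. Replicates differed by a median of 0.20 to 0.22 on the log2 scale in 3 groups and by 0.33 in control_TGFb2h. The study's methods call the libraries of a group biological replicates, without saying whether they came from separate cultures, so p-values measure the spread between these libraries. Of 6 epithelial markers, *Cdh1*, *Krt8*, *Krt18* and *Krt19* had at least 10 counts in every library whereas *Epcam* and *Krt7* did not, and the summed levels of the markers of fibroblasts, immune cells and endothelial cells reached at most 5.31 CPM. Levels are library-size-normalised counts, scaled with TMM factors (CPM), and levels between genes are compared per kilobase of annotated exon (CPM/kb).

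All 6 hosts were expressed in every library, with 104 to 3331 counts, for which counting error alone amounts to 9.81 to 1.73% of the value. Per kilobase, *Gas5* and *Snhg5* had the highest mean levels over the 8 libraries, 68.6 ± 7.36 and 68.4 ± 16.8 CPM/kb (SD, n = 8). *Snhg1* followed with 48.6 ± 9.15 CPM/kb. In every library, *Gas5* and *Snhg5* both lay above *Snhg1*. The ranges of these 3 hosts still overlapped, from 36.7 CPM/kb in the lowest library of *Snhg1* to 96.8 CPM/kb in the highest of *Snhg5*. A gap separated them from *Snhg3*, with 23.3 ± 3.20 CPM/kb and at most 29.9 CPM/kb. *Snhg12* and *Snhg7* were lowest, with 15.7 and 15.1 CPM/kb. Their ranges overlapped each other and that of *Snhg3*, but *Snhg3* lay above both in every library. The exon lengths behind these levels include transcripts with retained introns: the annotated exons of *Snhg1* cover all of its 2947 bases and those of *Gas5*, with 25 transcripts, 3760 of 4118 bases. Without the exon bases under snoRNAs the mean levels of *Gas5*, *Snhg5* and *Snhg1* were 83.5, 68.4 and 61.4 CPM/kb.

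**Figure D1:**
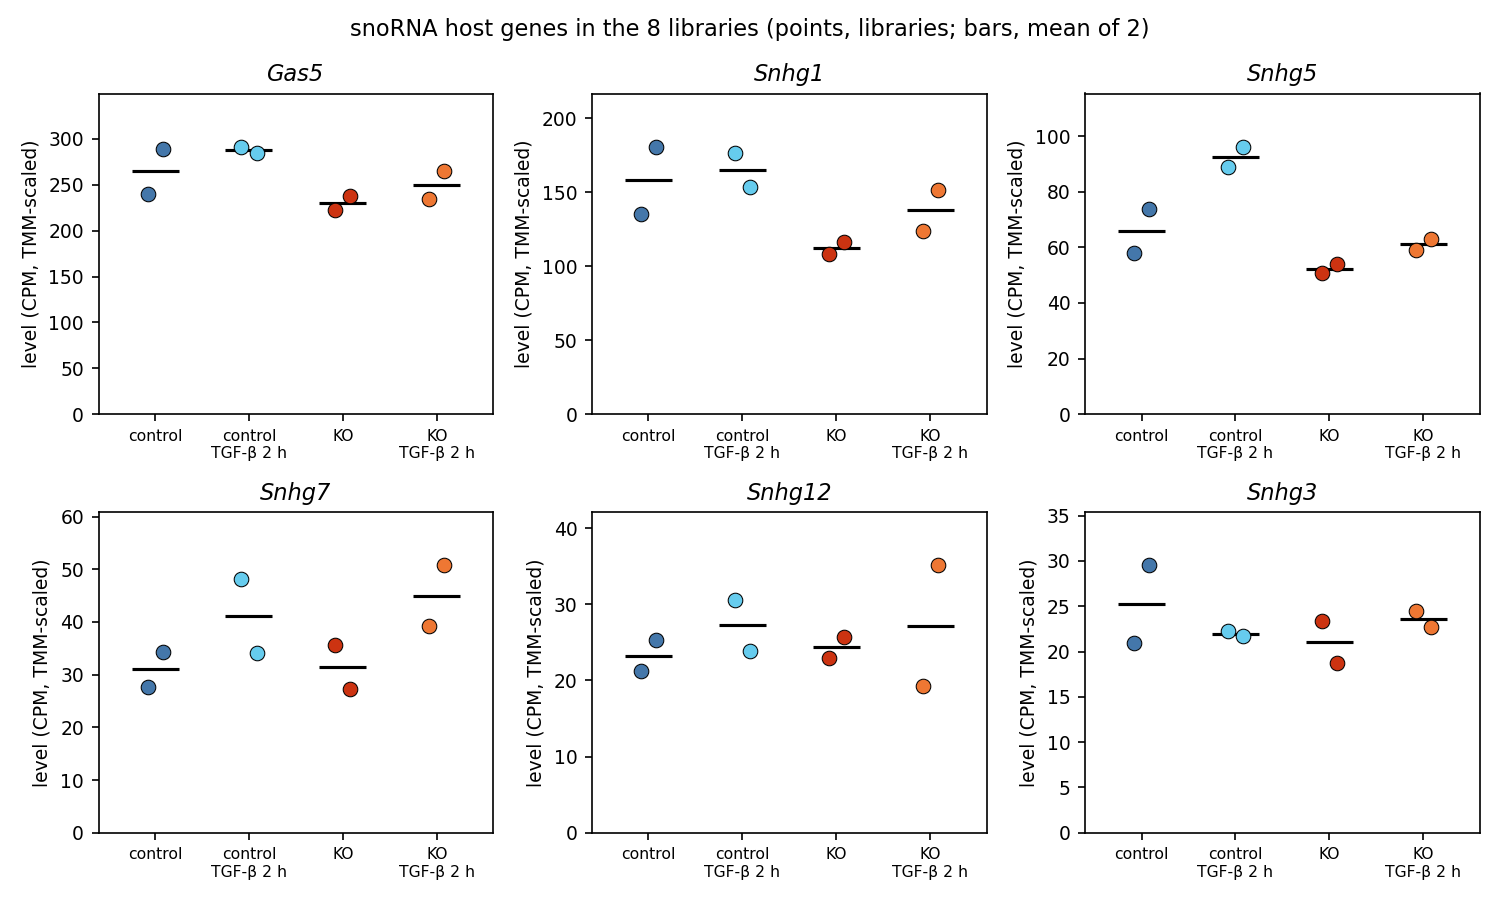
Level of each host gene (vertical axes, CPM, each starting at 0) in the 4 groups (horizontal axes); points are libraries and bars the mean of the 2 libraries. Snhg5 stood at 88.8 and 96.1 CPM in the treated control libraries and at no more than 73.8 CPM elsewhere, while the libraries of Snhg12 in treated KO cells lay at 19.3 and 35.1 CPM.

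The first comparison asked whether depletion of *Lnc-Nr6a1* goes with other host levels in untreated cells. *Gas5*, *Snhg1* and *Snhg5* were lower in both libraries labelled KO than in both control libraries, but none of the 6 hosts was called. Calls required a change of more than 0.5 on the log2 scale in either direction and an adjusted p below 0.05 in edgeR's quasi-likelihood test, which called 1.83% of the 13028 genes tested in this comparison. Groups that did not overlap, with KO lower, were found for 3 hosts and for 25.2% of all genes.

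*Snhg1* had the largest difference. It was measured at 135.4 and 180.7 CPM in control and at 108.1 and 116.2 CPM in KO. The KO libraries were close to each other and the control libraries far apart, with no overlap. The log2 fold change of KO against control was -0.49 (SE 0.18, 95% interval -0.90 to -0.09, unadjusted p = 0.0215, adjusted p = 0.233 by edgeR), or 0.710-fold. Without the second control library the value was -0.27 (adjusted p = 0.839 by edgeR), and without the first it was -0.69 (adjusted p = 0.264). *Snhg1* was the 1 host with an unadjusted p below 0.05, as were 14.9% of all genes, and DESeq2 and limma-voom called 0 hosts as well.

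*Snhg5* was measured at 58.1 and 73.8 CPM in control and at 50.6 and 53.9 CPM in KO. Again only the control libraries were far apart, and the log2 fold change was -0.33 (SE 0.16, adjusted p = 0.375 by edgeR). *Gas5* stood at 239.8 and 289.1 CPM in control and at 222.8 and 237.4 CPM in KO, so that the groups nearly touched. Its log2 fold change was -0.20 (95% interval -0.52 to 0.12). *Snhg3*, *Snhg7* and *Snhg12* overlapped between the groups, although *Snhg3* had a larger difference than *Gas5*. *Snhg3* had 21.0 and 29.5 CPM in control and 23.3 and 18.7 CPM in KO (log2 fold change -0.27, 95% interval -0.77 to 0.23). For *Snhg7*, the levels were 27.7 and 34.4 CPM in control and 35.7 and 27.2 CPM in KO, and the log2 fold change was 0.01 (95% interval -0.53 to 0.55). That of *Snhg12*, with 21.2 and 25.2 CPM in control and 22.9 and 25.8 CPM in KO, was 0.07 (95% interval -0.57 to 0.71). Without the second control library, the values of *Snhg5*, *Gas5* and *Snhg3* were -0.15, -0.06 and -0.00436, and without the first they were -0.50, -0.33 and -0.50. The median over the 6 hosts was -0.24, beside 0.02 over all genes tested.

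The same genotypes were then compared after 2 h of TGF-β. *Snhg5* was lower in the treated KO cells and was called, at 0.660-fold of its level in the treated control cells; the other 5 hosts were not called. In this comparison 15.0% of all genes tested were called, 6.57% lower and 8.47% higher in KO, and 31.4% had an unadjusted p below 0.05, so that 1 of 6 hosts is close to the background. *Snhg5* stood at 88.8 and 96.1 CPM in control_TGFb2h and at 59.1 and 62.9 CPM in KO_TGFb2h. The gap between the groups was several times the distance between the libraries of either group. The log2 fold change was -0.60 (SE 0.16, 95% interval -0.95 to -0.25, adjusted p = 0.0328 by edgeR). DESeq2 and limma-voom each called *Snhg5* too. The call was lost when only the 4 treated libraries were fitted (log2 fold change -0.60, adjusted p = 0.104 by edgeR). It was also lost without the second control_TGFb2h library (-0.54, adjusted p = 0.0990), without either KO library (adjusted p = 0.0660 and 0.0665) and without either KO_TGFb2h library (-0.55 and -0.63, adjusted p = 0.135 in both), where the size of the difference stayed near its value over all libraries.

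*Gas5* and *Snhg1* were also lower in both treated KO libraries than in both treated control libraries, and *Snhg3* was higher in both. Groups without overlap were found in 27.4% of all genes with KO lower and in 28.4% with KO higher. *Gas5* stood at 291.1 and 284.6 CPM in control_TGFb2h and at 234.5 and 264.4 CPM in KO_TGFb2h, with a log2 fold change of -0.21 (95% interval -0.53 to 0.11). *Snhg1* had 176.7 and 153.4 CPM in control_TGFb2h and 124.2 and 151.5 CPM in KO_TGFb2h, the nearest libraries of the groups being nearly level, and a log2 fold change of -0.26 (95% interval -0.66 to 0.14). Without the first KO_TGFb2h library the values of *Gas5* and *Snhg1* were -0.11 and -0.12, and without the second -0.28 and -0.40; that of *Snhg1* was -0.14 without the first control_TGFb2h library. *Snhg3*, at 22.3 and 21.7 CPM against 24.5 and 22.7 CPM, nearly touched between the groups (log2 fold change 0.10, 95% interval -0.38 to 0.58, or 0.0556 without the first KO_TGFb2h library and 0.17 without the second).

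*Snhg12* had the widest spread of any host within a group, relative to its mean. It was measured at 30.6 and 23.9 CPM in control_TGFb2h and at 19.3 and 35.1 CPM in KO_TGFb2h. The treated KO libraries thus enclosed both treated control libraries, and the log2 fold change of 0.00 had a 95% interval of -0.62 to 0.61. *Snhg7* overlapped as well, with 48.2 and 34.0 CPM in control_TGFb2h and 39.3 and 50.7 CPM in KO_TGFb2h (log2 fold change 0.13, 95% interval -0.39 to 0.65). The median over the 6 hosts was -0.11, beside -0.01 over all genes. This comparison and the preceding one use different libraries of each genotype, but the TGF-β comparisons below share libraries with both, so their values are set side by side and not correlated.

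The next comparisons asked whether the hosts respond to 2 h of TGF-β, in control cells and in KO cells. None of the 6 hosts was called in either genotype by edgeR, DESeq2 or limma-voom, against 9.16% of all genes in control cells and 6.82% in KO cells by edgeR. At an unadjusted p below 0.05, edgeR found 1 host in control cells and 0 in KO cells, beside 26.8% and 22.7% of all genes. In control cells, *Snhg5* stood at 58.1 and 73.8 CPM untreated and at 88.8 and 96.1 CPM with TGF-β. The treated libraries were higher without overlap, as in 27.4% of all genes. The log2 fold change of *Snhg5* was 0.49 (SE 0.16, 95% interval 0.13 to 0.84, adjusted p = 0.0863 by edgeR), which did not pass the threshold. It was 0.32 without the first control library and 0.67 without the second. In KO cells its levels were 50.6 and 53.9 CPM untreated and 59.1 and 62.9 CPM treated, and its log2 fold change was 0.22 (95% interval -0.14 to 0.58).

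*Snhg7* had the largest difference in KO cells, from 35.7 and 27.2 CPM untreated to 39.3 and 50.7 CPM with TGF-β. Its log2 fold change there was 0.53 (SE 0.24, 95% interval -0.01 to 1.06, adjusted p = 0.224 by edgeR). In control cells, where the treated libraries lay at 48.2 and 34.0 CPM and the lower one fell within the untreated range, it was 0.41 (95% interval -0.12 to 0.93). Leaving out 1 library at a time, these values of *Snhg7* ran from 0.34 (without the second KO library) to 0.73 in KO cells and from 0.12 (without the first control_TGFb2h library) to 0.63 in control cells. *Snhg1* was higher in both treated KO libraries than in both untreated ones (log2 fold change 0.30, 95% interval -0.11 to 0.70), but overlapped in control cells (0.06, 95% interval -0.34 to 0.46). In KO cells the value of *Snhg1* was 0.18 without the second KO_TGFb2h library and 0.46 without the first. Together with *Snhg5* and *Snhg7* it made 3 hosts that did not overlap in KO cells with TGF-β higher, beside 28.4% of all genes.

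*Gas5* differed little with TGF-β in either genotype, with log2 fold changes of 0.12 in control cells (95% interval -0.20 to 0.44) and 0.12 in KO cells (95% interval -0.21 to 0.44). *Snhg12* had 0.23 in control cells (95% interval -0.40 to 0.86) and 0.16 in KO cells (95% interval -0.48 to 0.79). *Snhg3* was the 1 host with a negative value, -0.20 in control cells (95% interval -0.68 to 0.29), against 0.17 in KO cells. Over the 6 hosts the median was 0.18 in control cells and 0.20 in KO cells, with positive values in 5 and in all 6, beside a median of 0.02 and 0.00 over all genes. These signs depended in part on 1 library: in control cells *Gas5* and *Snhg1* were negative without the first control library (-0.00768 and -0.13), *Snhg1* also without the first control_TGFb2h library (-0.0582), and *Snhg3* was positive without the second control library (0.0704). In KO cells *Snhg12* was negative without the second KO_TGFb2h library (-0.31). Where the sign held, the size still moved: *Snhg12* in control cells ran from 0.0265 (without the first control_TGFb2h library) to 0.40 (without the second), *Snhg3* in KO cells from 0.0250 (without the second KO library) to 0.34 (without the first), and *Gas5* in KO cells from 0.0568 (without the second KO_TGFb2h library) to 0.22 (without the first). The intervals of the hosts in both genotypes excluded a log2 fold change of 1 in either direction, except that of *Snhg7* in KO cells.

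**Figure D2:**
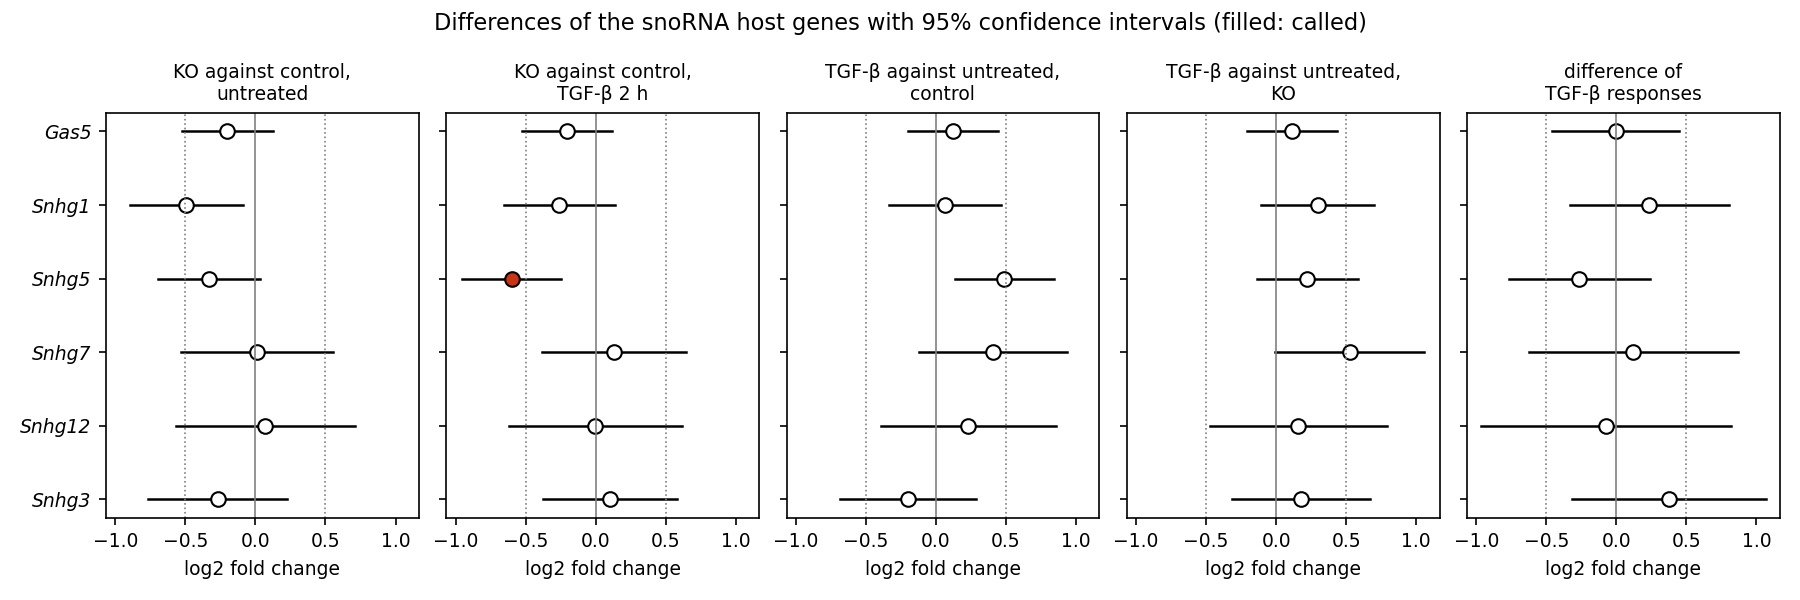
Log2 fold change of each host gene (points) with its 95% confidence interval (lines) in the 4 comparisons and in the difference between the TGF-β responses of KO and control cells; dotted lines mark 0.5 in either direction and a filled point a gene that was called. The 1 filled point is Snhg5 in KO against control after TGF-β, at -0.60.

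The difference between the TGF-β responses of the genotypes was tested as an interaction. No host was called, nor was any gene (0% of 13028 by edgeR, with 0 hosts and 1134 genes, or 8.70%, at an unadjusted p below 0.05; DESeq2 called 30 genes and limma-voom 0, among them 0 hosts, and edgeR without a filter on low counts 211 genes). The 6 estimates lay on both sides of 0, from -0.27 in *Snhg5* (95% interval -0.77 to 0.24) to 0.37 in *Snhg3* (95% interval -0.32 to 1.06). Without the first control library these were -0.0947 and 0.61, and without the second -0.44 and 0.11. That of *Snhg1*, 0.23, was 0.44 and 0.0162 in these fits. The call of *Snhg5* between genotypes after TGF-β, and its absence in untreated cells, therefore does not show that the genotypes responded differently.

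The snoRNAs inside the hosts were counted as genes of their own, and their counts followed the annotation. All 22 that lie wholly within an annotated exon of the host were at 0 in the 8 libraries, among them all snoRNAs of *Gas5*, *Snhg1* and *Snhg7*. The other 5, of which 4 lie in no exon of the host and Snora73a in part, all had counts. Across the annotation, 0 of 81 snoRNA genes wholly within an exon of another gene on the same strand had counts, beside 318 of 1442 in no exon. Among genes of all types, 3 of 356 whose exons are wholly covered on the same strand had counts, beside 47.7% of 155 covered on the opposite strand only and 51.8% of 30338 covered by no other gene. A 0 for a snoRNA of these hosts therefore says nothing of its level, and whether reads from those positions were counted for the host was not tested.

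**Figure D3:**
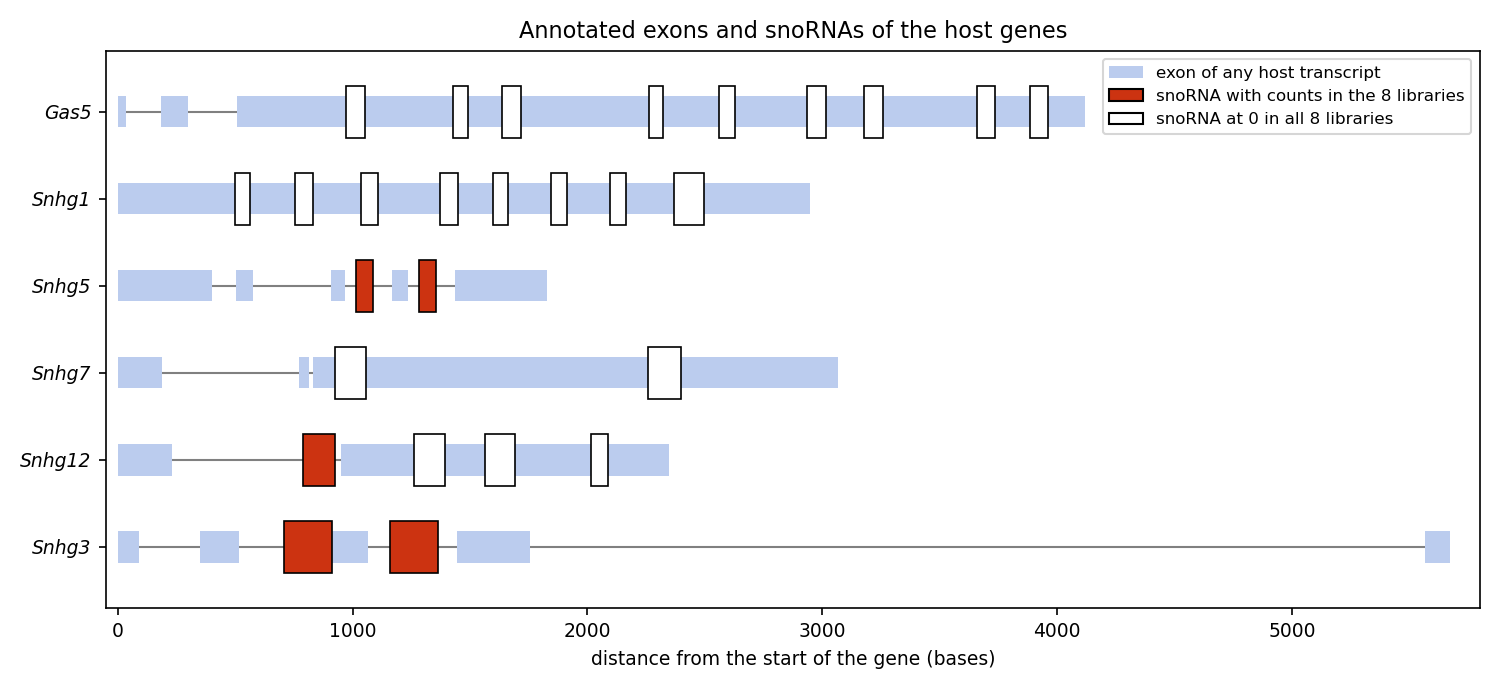
Annotated exons (blue) and snoRNA genes (boxes) of the 6 hosts by distance from the start of the gene in bases, all drawn from left to right in the direction of transcription. The 22 white boxes, at 0 counts in all 8 libraries, lie within exons, and the 5 red boxes, with counts, lie wholly or partly outside them.

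Snora73b of *Snhg3*, also known as U17, an H/ACA snoRNA that takes part in the cleavage of the ribosomal RNA precursor, held 14950 of the 15278 counts of the 27 snoRNAs. Its level was 214.2 and 97.7 CPM in control, 281.4 and 208.3 CPM in control_TGFb2h, 224.2 and 221.7 CPM in KO and 184.0 and 194.2 CPM in KO_TGFb2h. The second control library stood apart below the others, and the host *Snhg3*, at 29.5 CPM, was highest in that library. Snora73b was called in no comparison, and its largest log2 fold change was 0.65 with TGF-β in control cells (95% interval -0.03 to 1.33, adjusted p = 0.201 by edgeR). Without the second control library that value was 0.20 (SE 0.21, adjusted p = 0.657), and untreated KO against control went from 0.52 to 0.06. Snora73a had 6 to 35 counts, Snora16a 2 to 20, and the SNORD50 copies 0 to 6 and 2 to 16, of which the SNORD50 copies were too low to be tested and the others were not called. Mature snoRNAs are shorter than the fragments of most libraries, so their counts need not follow their abundance.

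Genes at the loci of the hosts were followed as well. *Slc3a2*, which encodes the heavy chain of an amino acid transporter, starts 126 bases from *Snhg1* on the opposite strand. It was called higher with TGF-β in KO cells, at 414.3 and 489.8 CPM treated and 303.4 and 267.6 CPM untreated (log2 fold change 0.66, SE 0.14, adjusted p = 0.0250 by edgeR). *Slc3a2* in control cells had 0.30 (adjusted p = 0.214), and the difference of its responses was not called (0.37, SE 0.20, adjusted p = 0.636). That call was lost without either KO library or the second KO_TGFb2h library (log2 fold changes 0.76, 0.58 and 0.57, adjusted p = 0.114, 0.209 and 0.157 by edgeR), where the size of the difference stayed near its value over all libraries. *Zbtb37*, which encodes a zinc finger protein, overlaps the annotated start of *Gas5* by 428 bases on the opposite strand without shared exon bases. The overlap ends upstream of the RefSeq start of *Gas5* shown above. The log2 fold change of *Zbtb37* with TGF-β was -0.78 in control cells and -0.80 in KO cells (adjusted p = 0.0850 and 0.0879 by edgeR), and it was not called. *Rcc1*, which encodes a regulator of chromosome condensation, overlaps *Snhg3* on the same strand and shares 135 exon bases with it; it was not called, with 36.6 to 73.1 CPM. The antisense gene *Gm17300* covers 705 exon bases of *Snhg3* and had 0 or 1 count in each library. *Trnau1ap*, 738 bases from *Snhg12*, and *5730588L14Rik*, 127 bases from *Snhg7*, were not called, and *Fam69b* and *Gm20532* near *Snhg7* were too low to be tested.

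Related genes were followed by lists. Of 12 further noncoding hosts, 9 had a row, and 7 could be tested. None was called in any comparison by edgeR, DESeq2 or limma-voom over the genes that passed the filter on low counts. Without that filter, edgeR called 1 with TGF-β in KO cells and 1 in treated KO against control. The smallest p was that of *Snhg9* in KO against control after TGF-β (13.0 and 3.91 CPM in control_TGFb2h, 1.47 and 4.21 CPM in KO_TGFb2h), with a log2 fold change of -1.58 (SE 0.68, adjusted p = 0.148 by edgeR). The medians of the list were -0.08 in untreated and -0.17 in treated cells for KO against control, and -0.06 and 0.19 for TGF-β in control and KO cells.

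Of 27 protein-coding hosts, all tested, 8 were called lower in treated KO cells and 0 higher, beside 6.57% of all genes lower. Among them were *Rps3*, *Rpl13a*, *Rpl27a* and *Rpl10*, which encode ribosomal proteins; *Dkc1* and *Nop58*, which encode core proteins of H/ACA and C/D snoRNPs; and *Cct6a*, which encodes a chaperonin subunit. *Rps3* had the largest difference, at 1778 and 1393 CPM in control_TGFb2h and 884.1 and 957.3 CPM in KO_TGFb2h (log2 fold change -0.78, SE 0.15, adjusted p = 0.0101 by edgeR). *Rpl27a* came closest to the threshold (adjusted p = 0.0493 by edgeR). It did not pass with RLE factors or without a filter on low counts (adjusted p = 0.0516 and 0.0512 by edgeR). Values were negative in 25 of the 27 and the median was -0.28, beside -0.01 over all genes. In untreated cells none was called, with negative values in 20 of 27 and a median of -0.09. Genes of ribosomal proteins have many processed pseudogenes, among which reads could be split.

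With TGF-β in control cells, *Hspa8*, a heat shock protein, and *Rpl10* were called higher (log2 fold changes 0.59 and 0.70, adjusted p = 0.0410 and 0.0340 by edgeR), beside 4.69% of all genes. *Ncl*, which encodes nucleolin and hosts snoRNAs in its introns, was called lower in both genotypes, beside 4.47% of all genes in control cells and 2.57% in KO cells. It was measured at 621.8 and 591.1 CPM in control, 336.9 and 356.3 CPM in control_TGFb2h, 472.3 and 390.6 CPM in KO and 293.7 and 298.6 CPM in KO_TGFb2h. The values of the 27 were positive in 22 in control cells and in 15 in KO cells, with medians of 0.22 and 0.04. For *Ncl*, every treated library of a genotype lay below every untreated one, with log2 fold changes of -0.81 in control cells and -0.54 in KO cells (adjusted p = 0.00874 and 0.0461 by edgeR).

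Of the 16 core and assembly proteins of snoRNPs, *Nop58*, *Nop10*, *Ruvbl2* and *Dkc1* were called lower in treated KO cells and 0 higher, beside 6.57% of all genes lower; *Nop58* and *Dkc1* are also hosts and are counted in both lists. *Dkc1*, the pseudouridine synthase of H/ACA snoRNPs, stood at 105.2 and 116.0 CPM in control_TGFb2h and at 63.0 and 66.8 CPM in KO_TGFb2h (log2 fold change -0.77, SE 0.14, adjusted p = 0.00891 by edgeR). *Dkc1* in untreated cells had 99.4 and 112.3 CPM in control and 73.8 and 73.7 CPM in KO, with a log2 fold change of -0.52 (adjusted p = 0.114). *Nop10*, an H/ACA core protein, was called higher with TGF-β in control cells (log2 fold change 0.62, adjusted p = 0.0288 by edgeR). For KO against control the median of the list was -0.30 in untreated cells, with 14 of 16 values negative and none called, and -0.36 in treated cells, with 13 of 16 negative.

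Of 10 factors of nonsense-mediated decay, *Upf1*, the RNA helicase of the pathway, was called higher in treated KO cells, at 100.7 and 131.9 CPM against 77.4 and 60.3 CPM in control_TGFb2h (log2 fold change 0.76, SE 0.18, adjusted p = 0.0231 by edgeR), beside 8.47% of all genes higher. None of the 10 was called in the other comparisons by edgeR, which had 2, 4 and 1 of them at an unadjusted p below 0.05 in untreated KO against control and with TGF-β in control and KO cells, beside 14.9%, 26.8% and 22.7% of all genes. The median in treated KO against control was 0.07. All calls named for these lists in treated KO against control were lost when only the 4 treated libraries were fitted. They were also lost without the second KO_TGFb2h library. Without the first, only those of *Dkc1*, *Nop10* and *Upf1* stayed. The calls of *Rpl27a*, *Rpl10*, *Cct6a* and *Ruvbl2* were lost without any 1 of 8, 7, 5 and 5 of the libraries, respectively. Leaving out 1 library at a time, the log2 fold changes of the named genes called lower lay between -0.95 (*Rps3*) and -0.36 (*Rpl27a*). The log2 fold changes of the named genes called lower ran from -0.78 (*Rps3*) to -0.52 (*Cct6a*) over all libraries and with the 4 treated libraries alike, and from -0.85 (*Rpl13a*) to -0.47 (*Cct6a*) without the second KO_TGFb2h library. That of *Upf1* was 0.76, 0.76 and 0.56 in these fits. The call of *Ncl* in control cells was lost without the first control library only, and that in KO cells, like those of *Hspa8*, *Rpl10* and *Nop10* with TGF-β in control cells, without any 1 of 5 or 6 of the libraries. In those fits the log2 fold changes ran from -0.66 to -0.39 for *Ncl* in KO cells, and from 0.47 to 0.71 for *Hspa8*, 0.52 to 0.72 for *Rpl10* and 0.57 to 0.67 for *Nop10*.

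**Figure D4:**
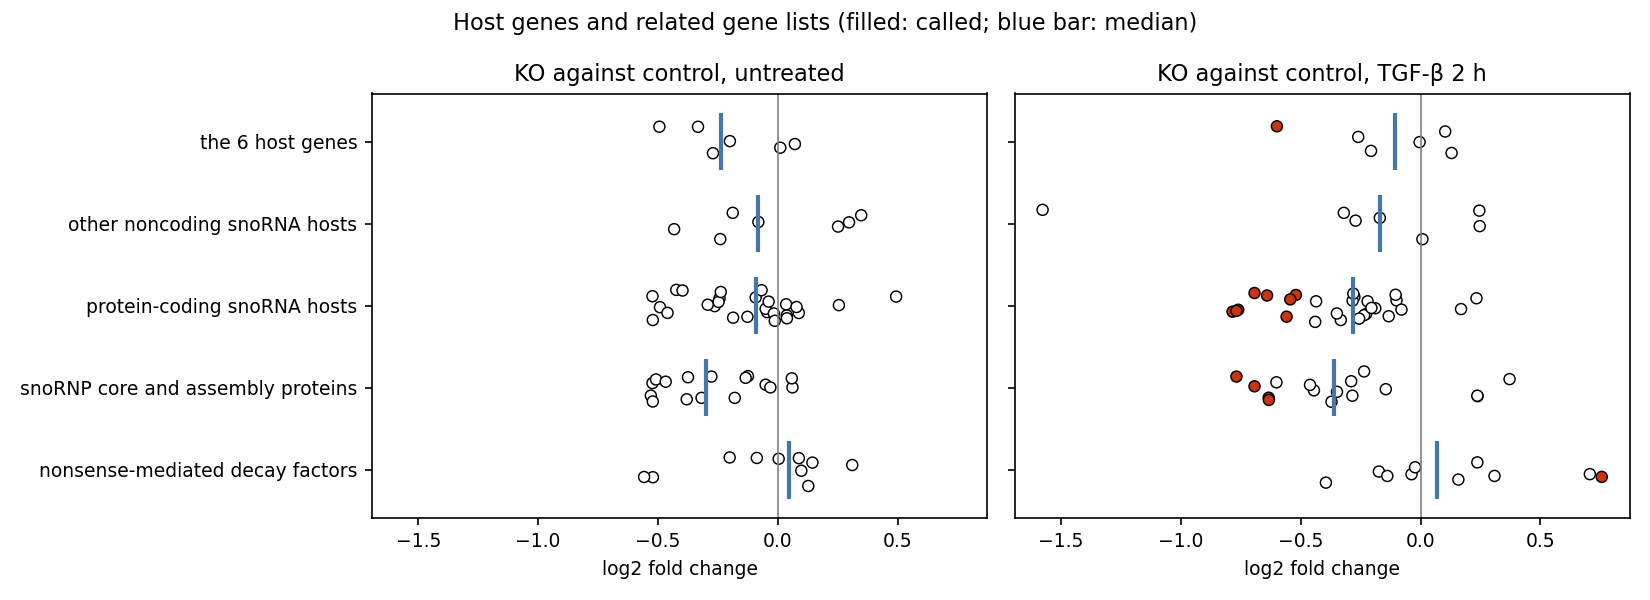
Log2 fold change of KO against control (horizontal axes) in untreated cells (left) and after TGF-β (right) for the 6 host genes and the related lists; points are genes, filled where called, and blue bars are medians. After TGF-β the protein-coding hosts lay mostly below 0, with a median of -0.28, and 8 of 27 were called.

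The levels of the hosts over the 8 libraries were described further by their correlations, which rest on 8 libraries in 4 groups of unequal depth. *Gas5* and *Snhg1* were most alike (Pearson r = 0.96), followed by *Gas5* and *Snhg5* (0.91) and *Snhg1* and *Snhg5* (0.81). All pairs with *Snhg3* lay between -0.08, with *Snhg12*, and 0.46, with *Snhg1*. *Snhg7* and *Snhg12* had 0.62. Among 13022 other genes, those with the pattern most like the mean of the 6 standardized hosts were *Pus3*, *Zfp511*, *Siah1b*, *Smad2* and *Usp27x*, with r of 0.94 to 0.92. *Pus3*, which encodes a tRNA pseudouridine synthase, had 12.7 and 22.4 CPM in control, 26.1 and 26.2 CPM in control_TGFb2h, 13.0 and 12.7 CPM in KO and 14.6 and 19.9 CPM in KO_TGFb2h. They were picked from the same libraries as the largest values among all genes.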

How the data were processed

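The values are raw read counts per gene as the authors deposited them, with 1 column for each of the 8 libraries. Per the paper, reads were aligned with subjunc to mm10 and mm9 and duplicates removed. The labels name HISAT2, limma and mm10, and paper and labels also differ on the kit, the sequencer and whether reads were single or paired. Single reads of 75 bases could start at 558 positions over both strands of Snora73b, which had 801 to 3006 counts in each library. Whether the deposited counts are free of duplicates was not tested. The counting tool is not given in the sources used here. The 37310 identifiers equal those of GENCODE vM1.

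TMM-scaled CPM and edgeR 4.0.16 (R 4.3.3) quasi-likelihood tests were computed on all 8 libraries, without a block, over the 13028 genes that passed filterByExpr, with Benjamini-Hochberg adjustment over all of them. Calls required an adjusted p below 0.05 and, except for the interaction, a log2 change of more than 0.5 in size, as in the study. SE is the absolute log2 fold change divided by the square root of F. Correlations used log2 CPM with a prior count of 2. DESeq2 1.42.0, limma-voom (limma 3.58.1), other scalings, filters and libraries were alternatives. Scripts were tested on simulated data.

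Named were the hosts, their snoRNAs and neighbours, the called or smallest-p genes of 4 lists (1 called gene is not reported here), and the 5 most similar genes. Members and lists were chosen with earlier results of these data known. Same-numbered libraries were not shown to be pairs. Positions come from NCBIM37, and start sites from RefSeq.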

Additional observations from a re-analysis of the deposited data

How the results depend on the processing

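The number of hosts called did not change with RLE factors, scaling on protein-coding genes, other filters, DESeq2, limma-voom, a replicate block or no fold change threshold. In KO against control after TGF-β, 1 host was called over all libraries, 0 with only the libraries of the comparison and 0 to 1 when libraries were left out in turn, where the log2 fold change of *Snhg5* stayed between -0.64 and -0.54 (adjusted p = 0.0363 to 0.135 by edgeR).

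The reversals concerned hosts that were not called in the comparison; the cause was not tested. *Snhg7* in untreated KO against control (0.01) gave -0.0266 with no filter, -0.0164 with limma-voom and -0.0171 with its own libraries only. *Snhg12* in treated KO against control (-0.00377) gave 0.000672 with RLE factors, 0.0264 with no filter, 0.000853 with DESeq2 and 0.000219 with its own libraries only. *Gas5* in the interaction (-0.00638) gave 0.00612 with RLE factors, 0.0620 with no filter and 0.00591 with DESeq2. Leaving out 1 library at a time, ranges that crossed 0 were, for untreated KO against control, -0.19 to 0.20 for *Snhg7* and -0.0544 to 0.20 for *Snhg12*. For TGF-β in control cells they were -0.00768 to 0.27 for *Gas5*, -0.13 to 0.29 for *Snhg1* and -0.43 to 0.0704 for *Snhg3*, and for TGF-β in KO cells -0.31 to 0.55 for *Snhg12*. For treated KO against control they were -0.10 to 0.42 for *Snhg7* and -0.49 to 0.37 for *Snhg12*. For the interaction they were -0.14 to 0.13 for *Gas5*, -0.0793 to 0.44 for *Snhg7* and -0.53 to 0.32 for *Snhg12*.

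Counts over all genes moved more. Untreated KO against control gave 238 calls, with 756 unfiltered, 428 by DESeq2, 137 by limma-voom, 804 with its own libraries only and 42 to 390 leaving out a library. TGF-β in control cells gave 1194, with 2021 unfiltered, 470 with its own libraries only and 145 to 1484 leaving out a library. TGF-β in KO cells gave 889, with 1832 unfiltered and 136 to 1381 leaving out a library. Treated KO against control gave 1959, with 410 with its own libraries only and 477 to 2762 leaving out a library. The interaction gave 0, with 211 unfiltered, 30 by DESeq2 and 0 to 6 leaving out a library (6 and 4 without the second and first control_TGFb2h library). With the replicate block, calls fell to 150, 831, 676 and 1490. Deviations of same-numbered libraries correlated at 0.098 between the untreated groups, 0.30 and -0.0092 between treatments and -0.47 between the treated groups, so the numbers were not taken as pairs. The block ended the calls of *Ncl* in KO cells, of *Rpl10* with TGF-β in control cells, and of *Rpl10* and *Rpl27a* in treated KO against control; it ended no call of a host. Fitted with their own libraries only, protein-coding hosts had 3 calls in untreated KO against control (0 over all libraries), 1 with TGF-β in control cells (3) and 0 in treated KO against control (8), snoRNP proteins 2 (0), 0 (1) and 0 (4), and decay factors 1 (0), 0 (0) and 0 (1). DESeq2 called 1 decay factor in untreated and 2 in treated KO against control (0 and 1 by edgeR). Unfiltered, 1 further noncoding host was called with TGF-β in KO cells and 1 in treated KO against control (0). *Ncl* with TGF-β in KO cells was not called with its own libraries only (-0.54, adjusted p = 0.0548 by edgeR), where 1 other protein-coding host was. With 2 libraries a group, differences smaller than the intervals printed cannot be seen.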
